A study of Mus musculus with 24 samples.

Results

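The genes of fatty acid synthesis were examined in brain and liver RNA of mice that lack a single phenylalanine transfer RNA gene. The set held 10 genes, namely Acly, Acss2, Acaca, Acacb, Fasn, Scd1, Elovl6, Me1, Srebf1 and Pnpla3, found by matching Ensembl identifiers to symbols among the 55469 genes of each table. All 10 were measured well enough to be tested in both tissues, among 19228 tested genes in the brain and 15856 in the liver. RNA sequencing had been performed on tissue pieces from 10-week-old male C57BL/6N mice with 4 genotypes. These were WT and homozygous deletion of 1 gene, with tRNA-Phe-GAA-1-1-/- written as tRNA-Phe-1-1-/-, tRNA-Phe-GAA-2-1-/- as tRNA-Phe-2-1-/- and, in the last line, tRNA-Phe-GAA-3-1-/- as tRNA-Phe-3-1-/-. Where several lines are listed they are called the 1-1, 2-1 and 3-1 lines. Each genotype had 3 replicates per tissue, 24 samples in all. The paper describes WT and mutant mice as matched by age and litter, and also says that its experiments used mice of different litters. Which samples shared a litter is not given. The mice ate chow freely. The deletions are in every cell of the animal, each stands for 1 gene of the tRNA family, and the deleted tRNA genes themselves were not measured here, so the genotypes rest on the labels.

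Fatty acids are built in the cytosol from citrate that leaves the mitochondria. ATP citrate lyase (Acly) turns citrate into acetyl-CoA, acetyl-CoA carboxylases commit it to synthesis as malonyl-CoA, and fatty acid synthase (Fasn) joins these units into palmitate with NADPH as the reductant. In the liver the pathway is known to follow feeding, insulin and the time of day, largely through the transcription factor that Srebf1 encodes.

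In the liver 8 of the 10 genes had a lower mean than WT in all 3 lines, Acaca and Elovl6 being the exceptions, and in the brain none passed the test. Across the 3 lines together, 6 of the 10 were reduced (adjusted p under 0.05, limma moderated test with Benjamini-Hochberg adjustment), when 2.53% of all liver genes were called lower. These were Acly, Acss2, Acacb, Fasn, Srebf1 and Pnpla3. Over the 10 genes the median difference was -1.33 on the log2 scale, against a median near 0 over all liver genes (0.00089). The 10 genes were chosen with earlier results of these data known. Their excess over all liver genes therefore describes the set and is not a test of it. All fold changes are of normalised counts (estimated reads divided by 1 size factor per sample by the authors), taken as differences of log2(normalised count + 1), so that the change of a gene with few reads is understated. Fewer cells of a type and less RNA per cell cannot be told apart in such tissue pieces.

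Brain libraries held 30365760 to 46225360 recovered reads, and liver libraries 32276896 to 51584522. The 10 genes took 2.02% ± 0.341 of the reads of WT livers (SD, n = 3), and 0.742% ± 0.332, 0.903% ± 0.359 and 0.918% ± 0.382 in 1-1, 2-1 and 3-1 livers. Scd1 alone took 1.31% to 1.63% of the reads in WT livers, most of that share. The lowest WT liver, at 1.65%, was above the highest knockout liver, at 1.34%. In the brain they took 0.0936% ± 0.00431 of the reads in WT and between 0.0904% and 0.104% in the 3 lines.

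The 10 genes differed widely in level. Per kilobase of transcript, the mean in WT livers was 126965 normalised counts for Scd1, followed by Acly (9602), Fasn (8776), Acss2 (7568), Srebf1 (3584), Me1 (2842), Acacb (1361), Acaca (1185), Elovl6 (923) and Pnpla3 (275). Neighbours in this order lay farther apart than their SDs combined at Scd1 and Acly, Acss2 and Srebf1, and Elovl6 and Pnpla3, and the others did not. In WT brains the order per kilobase was Acly (1505), Scd1 (1021), Fasn (900), Acss2 (689), Acaca (477), Elovl6 (370), Srebf1 (348), Me1 (243), Pnpla3 (131) and Acacb (18.1). There the neighbours Scd1 and Fasn, Fasn and Acss2, and Elovl6 and Srebf1 lay within their combined SDs. Each tissue had been normalised on its own, so levels were not tested between tissues.

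Regions at transcription starts of the genes are shown first because most members had lower liver levels in every line. RefSeq promoter windows (GRCm38.p6, 250 bases before to 50 after a transcription start) existed for 9 of the 10 genes, in 12 windows. They were searched on both strands for the E-box CACGTG, the sterol element TCACCCCAC, the CCAAT box and the GC box GGGCGG. No motif lies within another. No member window held the E-box or the sterol element, which occurred in 7.15% and 0.551% of all 32851 windows. With motifs this rare, finding none in 12 windows does not set the members apart. Only these exact letters were searched, so other forms of the sterol element may be present. The CCAAT box was in 8 of the 12 windows (7 genes) and the GC box in 6 (5 genes), against 37.4% and 35.7% of all windows. The windows of Acacb, Acaca, Fasn and Srebf1, and a window of Me1, lie inside the annotated gene, at starts within it. For these windows the search does not describe the bases before the gene. A match describes letters only and shows no bound factor. The bases before the annotated gene are printed in the direction of the gene, with CCAAT and GC boxes of either strand in capitals, for the 3 genes with the largest falls among those called in the 3 lines together (Pnpla3, Acly and Acss2) and for Elovl6, which was not called in any line.
Pnpla3, chr15:84167566-84167775, plus strand: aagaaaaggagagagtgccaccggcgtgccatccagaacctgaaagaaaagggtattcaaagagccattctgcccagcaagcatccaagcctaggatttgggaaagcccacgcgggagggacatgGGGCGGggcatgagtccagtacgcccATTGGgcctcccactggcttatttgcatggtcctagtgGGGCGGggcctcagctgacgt
Acly, chr11:100528001-100528250, minus strand: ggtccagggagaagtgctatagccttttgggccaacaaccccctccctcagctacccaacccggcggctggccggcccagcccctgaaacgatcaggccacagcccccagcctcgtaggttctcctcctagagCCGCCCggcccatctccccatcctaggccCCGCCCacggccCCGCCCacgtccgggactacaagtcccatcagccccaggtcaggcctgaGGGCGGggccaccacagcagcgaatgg
Acss2, chr2:155517793-155518042, plus strand: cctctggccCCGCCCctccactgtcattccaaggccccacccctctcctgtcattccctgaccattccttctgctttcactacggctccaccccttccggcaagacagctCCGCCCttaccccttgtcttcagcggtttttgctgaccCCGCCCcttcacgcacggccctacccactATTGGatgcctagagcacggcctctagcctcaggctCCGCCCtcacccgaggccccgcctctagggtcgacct
Elovl6, chr3:129532136-129532385, plus strand: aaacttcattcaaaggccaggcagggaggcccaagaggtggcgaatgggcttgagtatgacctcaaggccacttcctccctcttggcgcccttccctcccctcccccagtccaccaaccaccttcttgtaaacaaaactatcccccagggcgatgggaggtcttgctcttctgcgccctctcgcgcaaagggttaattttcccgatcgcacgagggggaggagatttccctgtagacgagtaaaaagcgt
These 4 stretches do not stand for the set. Fasn and Acacb, also called reduced in the 3 lines together, had CCAAT and no GC box in their windows, and Me1, not called in the 3 lines together, had GC boxes.

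Of the enzymes that supply acetyl-CoA, Acly was reduced in all 3 lines and Acss2 passed the test in 1 line and in the 3 together. Acly (ENSMUSG00000020917.17, chromosome 11, 100476352 to 100528000) had 44519, 36709 and 45800 normalised counts in the 3 WT livers. It had 10062, 11852 and 16281 in tRNA-Phe-1-1-/-, 11766, 17543 and 12407 in tRNA-Phe-2-1-/-, and 19609, 14057 and 11481 in tRNA-Phe-3-1-/- livers. All 9 knockout livers lay below the lowest WT liver, with line means at 30.1%, 32.8% and 35.5% of WT. Its log2 fold changes were -1.76 ± 0.22 (SE, adjusted p = 0.00059, limma), -1.62 ± 0.22 (adjusted p = 0.0298) and -1.52 ± 0.22 (adjusted p = 0.0229) in that order of lines. It was the only member called in each line on its own.

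Acss2 (ENSMUSG00000027605.18, chromosome 2, 155518043 to 155562743), which makes acetyl-CoA from acetate in the cytosol, had 24278, 16534 and 27486 normalised counts in WT livers. In tRNA-Phe-1-1-/- livers it had 4476, 3293 and 6916, in tRNA-Phe-2-1-/- livers 8821, 12990 and 9439, and in tRNA-Phe-3-1-/- livers 9228, 12964 and 10389. The groups did not overlap with WT in any line, and the tRNA-Phe-1-1-/- livers lay below those of both other lines. The log2 fold change against WT was -2.25 ± 0.27 (adjusted p = 0.000378, limma) in tRNA-Phe-1-1-/- livers. It was -1.12 ± 0.27 (adjusted p = 0.112) and -1.05 ± 0.27 (adjusted p = 0.0909) in 2-1 and 3-1 livers, neither past the threshold.

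Of the 2 carboxylases, Acacb was reduced in 2 lines and Acaca in none, with no test between the genes. Acacb (ENSMUSG00000042010.16, chromosome 5, 114146321 to 114250761) encodes the form held at mitochondria, where malonyl-CoA restrains fatty acid oxidation. Its normalised counts were 13688, 9845 and 13528 in WT livers, and 5130, 4384 and 8043, then 4925, 7431 and 4952, then 3880, 5255 and 3319 in the lines in the same order. No knockout liver reached the lowest WT liver. The log2 fold change was -1.11 ± 0.25 (adjusted p = 0.0112, limma) in tRNA-Phe-1-1-/- and -1.58 ± 0.25 (adjusted p = 0.0263) in tRNA-Phe-3-1-/- livers, and -1.11 ± 0.25 (adjusted p = 0.1) in tRNA-Phe-2-1-/- livers.

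Acaca (ENSMUSG00000020532.18, chromosome 11, 84129635 to 84401651) encodes the cytosolic carboxylase that feeds fatty acid synthase. Its normalised counts were 14908, 8504 and 10415 in WT livers and 13085, 10978 and 17676 in tRNA-Phe-1-1-/- livers. In tRNA-Phe-2-1-/- livers they were 6552, 8884 and 8648, and in tRNA-Phe-3-1-/- livers 7473, 9247 and 7471. The values overlapped with WT in each line, and the tRNA-Phe-1-1-/- livers all lay above those of both other lines. No comparison with WT passed the test: the log2 fold changes were 0.31 ± 0.22 (95% interval -0.16 to 0.79), -0.46 ± 0.22 (-0.94 to 0.01) and -0.45 ± 0.22 (-0.93 to 0.02).

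Fasn (ENSMUSG00000025153.9, chromosome 11, 120805958 to 120825166) varied most among WT livers, with 152487, 47540 and 84041 normalised counts, a 3.21-fold range. It had 29368, 29352 and 51740 in tRNA-Phe-1-1-/-, 25920, 45934 and 48026 in tRNA-Phe-2-1-/-, and 24775, 28154 and 20684 in tRNA-Phe-3-1-/- livers. Of the 9 knockout livers, 7 lay below the lowest WT liver. The fall was called in tRNA-Phe-1-1-/- livers (-1.26 ± 0.38, adjusted p = 0.0433, limma) and in the 3 lines together (-1.40 ± 0.31, adjusted p = 0.0339). In tRNA-Phe-3-1-/- livers, the line with the lowest mean, it was -1.80 ± 0.38 (adjusted p = 0.0557).

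Me1 (ENSMUSG00000032418.15, chromosome 9, 86581363 to 86695914), the cytosolic malic enzyme that yields NADPH, had 18396, 8804 and 8306 normalised counts in WT livers. It had 5675, 3190 and 5962, then 5962, 7994 and 6790, then 4231, 8653 and 4515 in the 3 lines. WT replicate A stood above the other WT livers, with a 2.21-fold range, and 8 of the 9 knockout livers lay below the lowest WT liver. Me1 was reduced in tRNA-Phe-1-1-/- livers (-1.21 ± 0.35, adjusted p = 0.0347, limma), and had log2 fold changes of -0.69 ± 0.35 and -1.01 ± 0.35 in the other lines (adjusted p = 0.381 and 0.187).

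The 2 enzymes that act on palmitate were Scd1 and Elovl6. Scd1 (ENSMUSG00000037071.3, chromosome 19, 44394450 to 44407709), the desaturase that makes monounsaturated fatty acids, had 698456, 556287 and 658872 normalised counts in WT livers. It had 101350, 205402 and 327765, then 144945, 420773 and 287907, then 261519, 471615 and 201846 in the 3 lines. All 9 knockout livers lay below the lowest WT liver, but within each line the values spread more than 2-fold. The fall was called in tRNA-Phe-1-1-/- livers (-1.74 ± 0.47, adjusted p = 0.0261, limma) and had an adjusted p of 0.0657 in the 3 lines together (-1.38 ± 0.38).

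Elovl6 (ENSMUSG00000041220.10, chromosome 3, 129532386 to 129638495), the elongase that lengthens palmitate, had 8757, 3170 and 5054 normalised counts in WT livers. It had 4736, 4460 and 10332, then 2531, 2934 and 3798, then 1963, 4465 and 2525 in the 3 lines. The groups overlapped with WT in every line. Its log2 fold changes against WT were 0.21 ± 0.41 (95% interval -0.69 to 1.12), -0.77 ± 0.41 (-1.68 to 0.13) and -0.89 ± 0.41 (-1.79 to 0.02), with none past the threshold.

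Srebf1 (ENSMUSG00000020538.15, chromosome 11, 60199084 to 60224186) encodes the sterol regulatory element binding protein that activates most enzymes of the pathway. Its WT livers were the most alike, at 16826, 13746 and 16062 normalised counts. The knockout livers had 6331, 8687 and 9265, then 9217, 10488 and 9942, then 8283, 9277 and 9573. Every knockout liver lay below every WT liver, at 52.1%, 63.6% and 58.2% of the WT mean by line. The fall was called in tRNA-Phe-1-1-/- (-0.96 ± 0.14, adjusted p = 0.000977, limma) and tRNA-Phe-3-1-/- livers (-0.78 ± 0.14, adjusted p = 0.0328), and was -0.65 ± 0.14 (adjusted p = 0.0785) in tRNA-Phe-2-1-/- livers.

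Pnpla3 (ENSMUSG00000041653.5, chromosome 15, 84167776 to 84189521), a lipid droplet protein induced with lipogenesis, had the largest fold difference and the lowest counts. The WT livers held 591, 216 and 352 normalised counts. The knockout livers held 12.2, 48.5 and 86.0, then 12.8, 62.0 and 31.3, then 32.7, 43.9 and 25.1. No knockout liver came within 2-fold of the lowest WT liver. The log2 fold change was -3.21 ± 0.68 (adjusted p = 0.00858, limma) in tRNA-Phe-1-1-/- and -3.39 ± 0.68 (adjusted p = 0.0465) in tRNA-Phe-3-1-/- livers, and -3.55 ± 0.68 (adjusted p = 0.0684) in tRNA-Phe-2-1-/- livers.

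**Figure D1:**
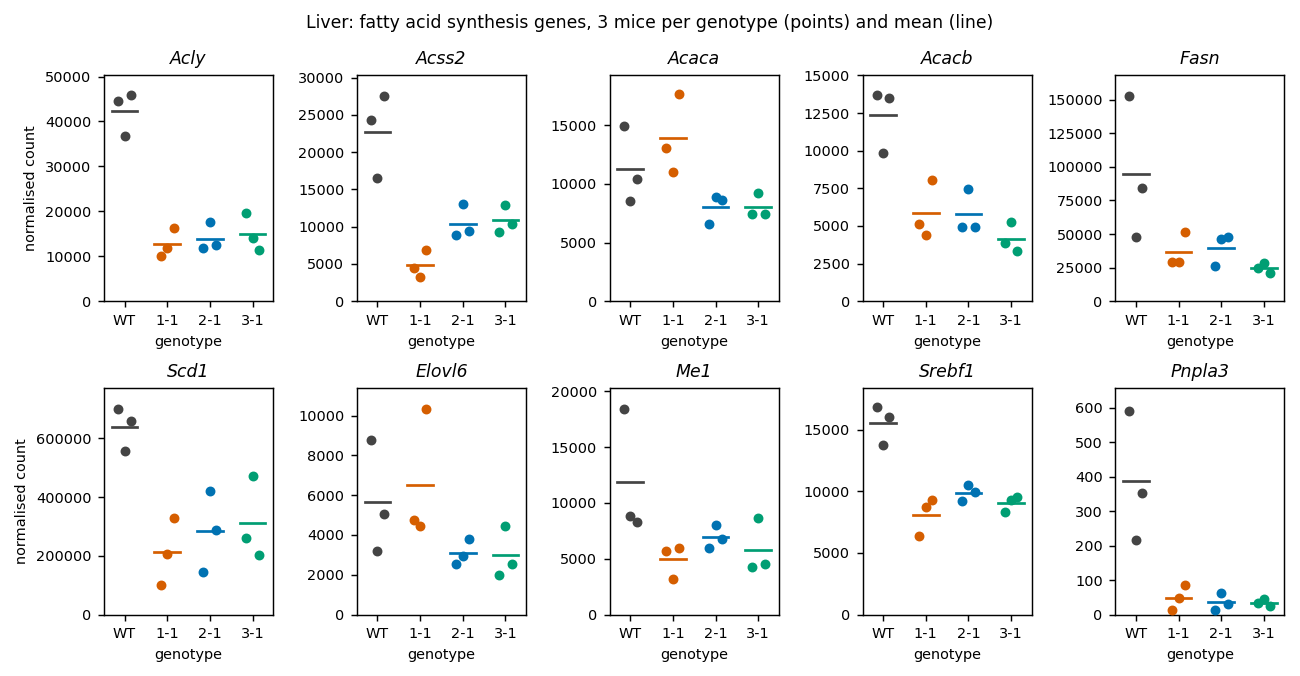
Normalised counts (vertical axes, from 0) of the 10 genes in liver by genotype (horizontal axes), with 1 point per replicate and a line at the mean. For Acly, Acss2, Acacb, Scd1, Srebf1 and Pnpla3 all 9 knockout livers lie below the lowest WT liver, whereas Acaca and Elovl6 overlap with WT in every line.

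Counted by line, 8 of the 10 genes were reduced in tRNA-Phe-1-1-/- livers, where 9.08% of all liver genes were called lower. In tRNA-Phe-3-1-/- livers 4 were reduced, namely Acly, Acacb, Srebf1 and Pnpla3, against 0.694% of all genes. In tRNA-Phe-2-1-/- livers only Acly was called, against 0.12% of all genes. The medians of the 10 genes were close across lines, at log2 fold changes of -1.24 in tRNA-Phe-1-1-/-, -1.11 in tRNA-Phe-2-1-/- and -1.09 in tRNA-Phe-3-1-/- livers. These 3 comparisons share the same WT livers, and the set was chosen with earlier results of these data known, so the counts describe it only.

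Groups that did not overlap gave a like picture without the test. In each line 7 of the 10 genes had all 3 knockout livers below all 3 WT livers, and 17.6%, 12.2% and 10.1% of all liver genes did so in 1-1, 2-1 and 3-1 livers. With the 9 knockout livers pooled, 6 of the 10 genes lay wholly below WT, as did 2.57% of all liver genes. The F-test for any difference among the 4 genotypes called 6 of the 10, against 17.0% of all genes. The way the set was chosen limits these counts too, and they are a description.

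**Figure D2:**
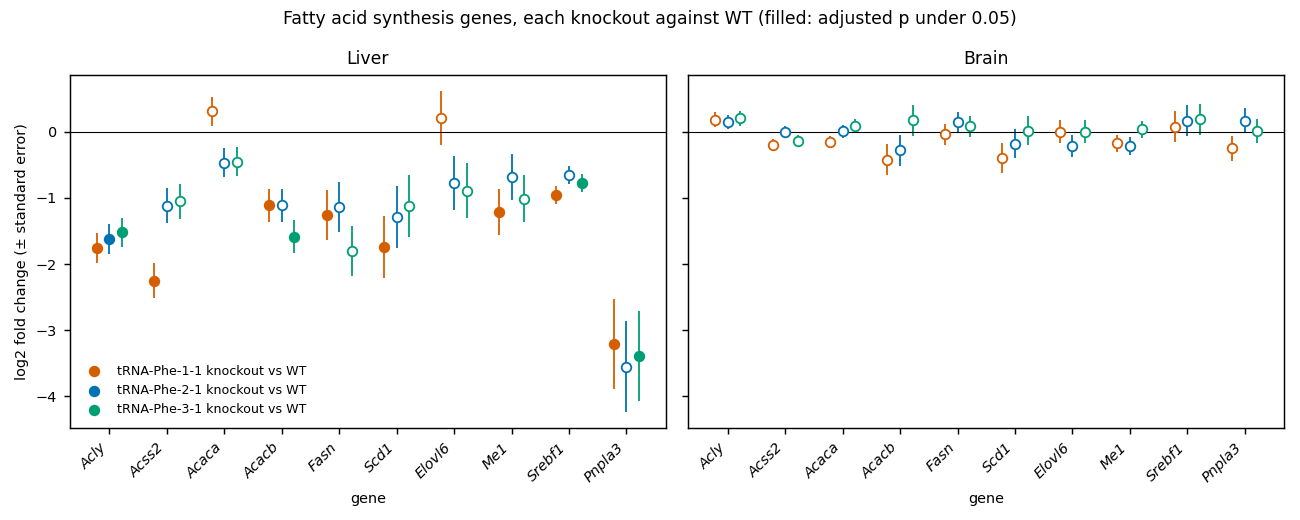
Log2 fold change against WT with its standard error (vertical axis) of each gene (horizontal axis), for the 3 lines in liver (left) and brain (right), with filled points where the adjusted p was under 0.05. In the liver 8 of the 10 genes lie below 0 in all 3 lines, while in the brain every value lies between -0.42 and 0.20 and no point is filled.

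Single libraries carried weight in these counts. Leaving out WT replicate C left 1 of the 6 calls of the 3 lines together (Acly, adjusted p = 0.0418), although the fold changes of Acss2 (-1.32), Srebf1 (-0.77) and Pnpla3 (-3.39) stayed near their full values, and leaving out any other library left 5 to 7. In tRNA-Phe-1-1-/- livers 5 of the 8 calls were left without WT replicate A or without knockout replicate A. In tRNA-Phe-2-1-/- livers the call of Acly was lost (0 left) without WT replicate B, WT replicate C or any of the 3 knockout replicates. In tRNA-Phe-3-1-/- livers 0 of the 4 calls were left without WT replicate A, WT replicate C, or knockout replicate B or C, and 2 without knockout replicate A. The call of Fasn in the 3 lines together was lost in 9 of 22 alternatives, counting other settings and left-out libraries. Without WT replicate A its log2 fold change was -0.97 (adjusted p = 0.0951, limma), and without WT replicate C it was -1.40 (adjusted p = 0.168). In tRNA-Phe-1-1-/- livers its call was lost in 8 of 17 alternatives.

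Replicates of a group differed in a like direction across the genes. In WT, replicate A was above the WT mean for all 10 genes (median log2 deviation 0.30) and replicate B below it for all 10 (median -0.35). Among tRNA-Phe-1-1-/- livers the medians were -1.41, -1.58 and -0.81. They were -1.32, -0.75 and -0.98 in tRNA-Phe-2-1-/- livers, and -1.33, -0.76 and -1.47 in tRNA-Phe-3-1-/- livers. Every knockout liver had a median below that of every WT liver, and every liver of 2-1 and 3-1 mice was below the WT mean for all 10 genes. In tRNA-Phe-1-1-/- livers 8 or 9 of the 10 were below the WT mean, Acaca and Elovl6 holding the exceptions.

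**Figure D3:**
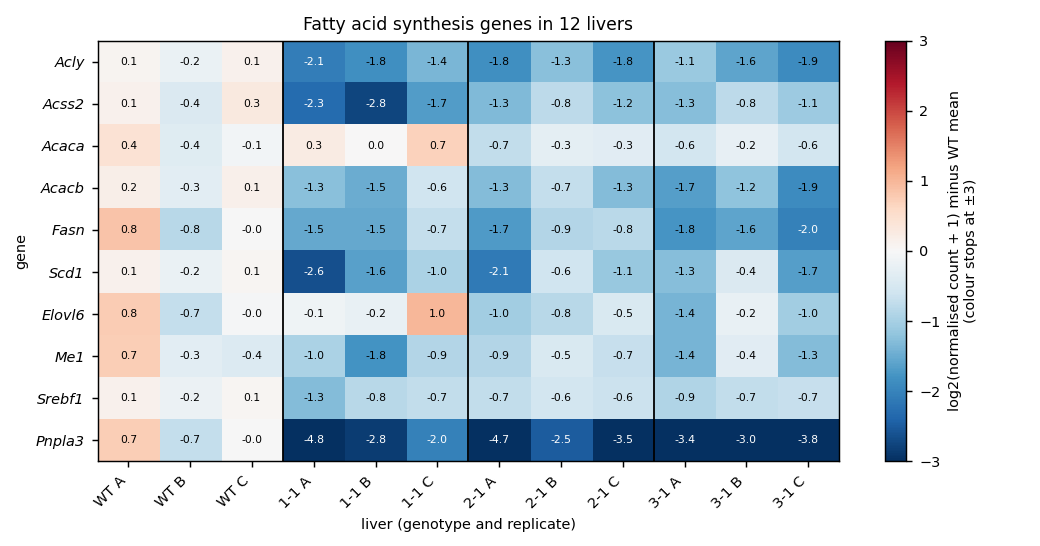
Log2(normalised count + 1) minus the WT mean of the gene (colour, blue for lower and red for higher, with the value printed) for 10 genes (rows) in 12 livers (columns, by genotype and replicate). Pnpla3 has the lowest value in all 9 knockout livers, and the red cells outside WT belong to Acaca and Elovl6 in tRNA-Phe-1-1-/- livers.

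Over the 12 livers the 45 pairs of members had a median Pearson correlation of 0.724 on the log2 scale, with 44 above 0. Pnpla3 (r = 0.939), Acacb (0.935) and Fasn (0.931) were closest to the mean of the other members, and Acaca (0.408) and Elovl6 (0.544) farthest from it. The points share genotype and library, so these values only describe the set. In the 12 brains the median was 0.428.

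The genes outside the set whose pattern over the 12 livers was most like the mean of the 10 were Pnpla5 (r = 0.952), Col18a1 (0.922), Gga2 (0.913), Gstp3 (0.891), Shroom1 (0.891), Gm10616 (0.887), Mfsd12 (0.885) and Gm7329 (0.885). Pnpla5, the paralogue of Pnpla3, had 113 ± 87.7 normalised counts in WT livers (SD, n = 3) and 12.9 ± 15.4, 8.26 ± 8.73 and 2.44 ± 0.815 in the lines. It was picked for following the members in these same livers, and reached the filter of a mean of 10 through its level in WT, so its values are a description.

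The lines were compared with each other for the same genes. Acss2 was lower in tRNA-Phe-1-1-/- livers than in 2-1 (-1.14 ± 0.27, adjusted p = 0.0156, limma) and 3-1 livers (-1.20 ± 0.27, adjusted p = 0.0121). Acaca was higher there than in 2-1 (0.78 ± 0.22, adjusted p = 0.0326) and 3-1 livers (0.77 ± 0.22, adjusted p = 0.0344). Leaving out any single library of the lines compared left 0 or 1 of the 2 calls against tRNA-Phe-2-1-/- livers and 1 to 3 calls against tRNA-Phe-3-1-/- livers. No other member was called between lines, so 2 of 10 were called in each of these comparisons, where 15.9% and 16.1% of all liver genes were. Elovl6 had differences of 0.98 ± 0.41 (adjusted p = 0.131) and 1.10 ± 0.41 (adjusted p = 0.0925) in the direction of Acaca. Between 2-1 and 3-1 livers no member passed (0.0% of all genes, limma), with 0 members at an unadjusted p under 0.05 and 0 called by edgeR or DESeq2. The narrowest 95% interval of that difference was for Srebf1 (-0.17 to 0.43) and the widest for Pnpla3 (-1.66 to 1.33).

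Other genes of the pathway were taken from 3 lists. The first held 21 genes that supply acetyl-CoA, citrate and NADPH, all tested in the liver. In the 3 lines together 2 were reduced, where 2.53% of all liver genes were called lower, and the list median was -0.17. In 1-1, 2-1 and 3-1 livers 9, 1 and 1 were reduced and none raised. Of all genes 9.08%, 0.12% and 0.694% were called lower in these lines. Pgd, a dehydrogenase of the pentose phosphate pathway that makes NADPH, fell from 1311 ± 136 normalised counts in WT to 777 ± 44.9, 770 ± 15.4 and 808 ± 123 (-0.74 ± 0.10 together, adjusted p = 0.00587, limma). It was called in each line on its own. G6pdx, the first enzyme of that pathway, fell too (-0.97 ± 0.22, adjusted p = 0.0356), whereas cytosolic Idh1 was -0.22 ± 0.07 (adjusted p = 0.109) together and was reduced in tRNA-Phe-1-1-/- livers (-0.61 ± 0.09, adjusted p = 0.00116).

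The second list held 25 genes of fatty acid activation, elongation and desaturation, of which 20 were tested in the liver. In the 3 lines together 3 were reduced and none raised, with a median of -0.22, where 2.53% of all liver genes were called lower. Elovl5, an elongase of polyunsaturated fatty acids, fell from 33324 ± 1286 normalised counts to 11460 ± 2258, 18160 ± 3949 and 22377 ± 5724 (-1.02 ± 0.17, adjusted p = 0.0107, limma). The acyl-CoA synthetases Acsl5 (-0.64 ± 0.11, adjusted p = 0.0133) and Acsl3 (-0.57 ± 0.14, adjusted p = 0.0398) fell as well. By line limma called 5 lower in tRNA-Phe-1-1-/- livers, against the 9.08% of all genes given above. It called 0 in 2-1 and 3-1 livers, as did edgeR, with 9 and 7 genes at an unadjusted p under 0.05, and DESeq2 called 2 and 1. At that unadjusted level of limma 7.79% and 8.57% of all liver genes were lower and 7.13% and 7.51% higher.

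The third list held 30 regulators and partners of fatty acid synthesis, all tested. In the 3 lines together 4 were reduced and 1 raised, with a median of -0.02, where 2.53% of all liver genes were called lower and 1.51% higher. Insig1, which retains the sterol sensor in the endoplasmic reticulum, fell from 30585 ± 4453 normalised counts to 14075 ± 1959, 19189 ± 419 and 17655 ± 4158 (-0.86 ± 0.14, adjusted p = 0.00959, limma). Mlxipl, the glucose-responsive factor also called ChREBP, fell (-0.83 ± 0.15, adjusted p = 0.0169) and so did Scap, the escort of the sterol regulatory proteins (-0.58 ± 0.12, adjusted p = 0.0247). The remaining call was Pnpla5, whose place in the count rests on its level in WT as said above. The gene that rose was Rxra, a nuclear receptor partner (0.47 ± 0.11, adjusted p = 0.041). By line limma called 5 lower and 3 higher in tRNA-Phe-1-1-/- livers, where 9.08% of all liver genes were called lower and 8.27% higher. In tRNA-Phe-2-1-/- livers limma and edgeR called 0 and DESeq2 5. There 10 were at an unadjusted p under 0.05 by limma, where 7.79% of all liver genes were lower and 7.13% higher. In tRNA-Phe-3-1-/- livers limma called 1 lower, against 0.694% of all liver genes, and DESeq2 called 5. Without WT replicate C, 0 genes of each of the 3 lists were called in the 3 lines together.

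**Figure D4:**
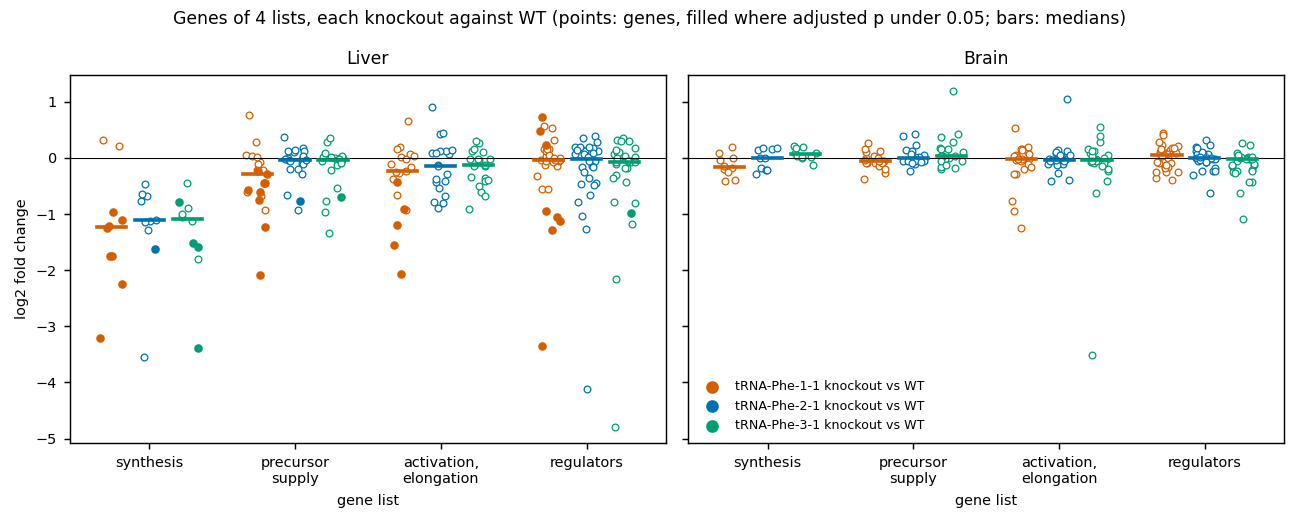
Log2 fold change against WT (vertical axis) of each tested gene of the 10 and of the 3 pathway lists (horizontal axis) in liver (left) and brain (right), by line, with filled points where the adjusted p was under 0.05 and bars at the medians. In the liver the medians of the 10 genes lie between -1.24 and -1.09 and those of the 3 lists between -0.29 and -0.01.

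Markers of state and of other cell types were read beside these results in the liver. Of 13 clock genes, 5 were reduced and 7 raised in tRNA-Phe-1-1-/- livers, where 9.08% of all liver genes were called lower and 8.27% higher. Examples were Dbp (54.5 ± 22.4 normalised counts in WT and 2232 ± 1204) and Npas2 (331 ± 78.8 and 9.13 ± 8.15). The 13 clock genes summed to 15887 to 25357 in these livers against 11366 to 13352 in WT. None of the 13 was called in tRNA-Phe-2-1-/- livers, where the sum was 11341 to 13824, nor in tRNA-Phe-3-1-/- livers, where it was 12900 to 19079. Of all liver genes 0.132% and 0.883% were called in these lines. Genes that rise and genes that fall partly cancel in the sum, so a sum near that of WT does not show an unchanged clock. Pericentral hepatocyte markers (8 genes, 2 called higher in the 3 lines together) summed to 95343 to 139138 in WT and 189459 to 217209 in tRNA-Phe-2-1-/- livers, wholly higher. In the 1-1 and 3-1 lines they summed to 100360 to 213411 and 117697 to 232157. Of all liver genes 1.51% were called higher and 2.53% lower in the 3 lines together. Periportal markers (7 genes, 1 called higher in the 3 lines together) summed to 133840 to 158219 in WT, 182651 to 236526 in 1-1, 104300 to 140401 in 2-1 and 134143 to 171796 in 3-1 livers. Of 9 fasting-response genes, Angptl4 (1.28 ± 0.32, adjusted p = 0.0470, limma), Cpt1a and Pck1 rose and Pdk4 fell (-1.91 ± 0.24, adjusted p = 0.00587) in the 3 lines together. Pck1 stands in both the periportal and the fasting-response list, so these 2 readings are not separate for it. The fasting sum was 169244 to 210401 in 1-1 livers against 99168 to 133094 in WT, 109692 to 165783 in 2-1 and 120090 to 137573 in 3-1 livers. The part of clock, zonation and feeding state in the result was not tested, and the hour of collection and any fast are not given in the sources used here.

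None of 8 hepatocyte markers was called in the 3 lines together (limma). In tRNA-Phe-1-1-/- livers 1 was raised, where 8.27% of all liver genes were called higher. Their summed level was 3408737 to 4082125 normalised counts in WT and 2937381 to 3484173 in 1-1 livers. It was 3016796 to 3270911 in 2-1 livers, wholly below WT, and 3588575 to 4237650 in 3-1 livers, and its part was not tested. Of 6 adipocyte markers, 2 had a mean of at least 10 and Lep was at 0 in every liver. Their sum was 184 to 269 in WT, 52.0 to 214 in 1-1, 194 to 287 in 2-1 and 246 to 304 in 3-1 livers, and its part was not tested. The red cell sum was 9408 to 11360 in tRNA-Phe-1-1-/- livers against 16129 to 20835 in WT, and its part was not tested.

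In the brain no member was called in any comparison. The share of all brain genes called was 1.05% in tRNA-Phe-1-1-/- against WT, 0.0% in tRNA-Phe-2-1-/-, 0.0% in tRNA-Phe-3-1-/- and 0.0% in the 3 lines together (limma). Between lines it was 0.53% for 1-1 against 2-1, 2.11% for 1-1 against 3-1 and 0.0% for the remaining pair, and 0.634% for any difference among genotypes. At an unadjusted p under 0.05, 1 member was lower in tRNA-Phe-1-1-/- brains (Acss2), as were 7.88% of all brain genes, and 0 in the other lines or in the 3 together. Between lines 2 members were past that level for 1-1 against 2-1 (Acss2 and Pnpla3), 2 for 1-1 against 3-1 (Acaca and Acacb) and 0 for the remaining pair. Of all brain genes 6.58% were lower and 7.1% higher at that level in the first of these comparisons and 9.14% and 10.4% in the second, so these counts are near the general share. Neither edgeR nor DESeq2 called a member in any brain comparison. Over all brain genes DESeq2 called 19, 366 and 170 in the 2-1 line, the 3-1 line and the 3 lines together, where limma and edgeR called 0.

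Line means in the brain lay between 75.9% and 117% of WT. Acly had 7016, 7076 and 5820 normalised counts in WT brains and 7015, 7144 and 8507 in tRNA-Phe-1-1-/-, 7547, 6789 and 7706 in tRNA-Phe-2-1-/-, and 7752, 6819 and 8367 in tRNA-Phe-3-1-/- brains. Its 95% interval for the 3 lines together was -0.02 to 0.38 in this tissue, whereas the liver gave -2.04 to -1.23. Pnpla3 had 185, 181 and 185 in WT brains and 179, 146 and 141, then 190, 185 and 250, then 175, 149 and 243 in the lines, and its interval was -0.36 to 0.31. Over the 10 genes these brain intervals ranged from -0.59 to 0.56. Single lines gave wider intervals. The lowest fold changes were those of Acacb (-0.42, -0.93 to 0.09) and Scd1 (-0.40, -0.89 to 0.09) in tRNA-Phe-1-1-/- brains. The highest was that of Acly in tRNA-Phe-3-1-/- brains (0.20, -0.04 to 0.45). Changes within these intervals were not excluded.

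The tRNA-Phe-1-1-/- brains had 4 members, Acss2, Me1, Scd1 and Pnpla3, wholly below WT, where 12.4% of all brain genes were. In the same brains the summed level of 7 oligodendrocyte markers was 44105 to 83854 normalised counts against 116318 to 138759 in WT. All 7 were lower and 1 was called, where 0.426% of all brain genes were called lower. The part of these markers was not tested. For Acss2 the values were 2146, 1972 and 2095 in WT and 1927, 1772 and 1713 in tRNA-Phe-1-1-/- brains (-0.20 ± 0.09, adjusted p = 0.292, limma). For Scd1 they were 5761, 5167 and 4462 against 4146, 3294 and 4244 (-0.40 ± 0.22, adjusted p = 0.413). In the 3 pathway lists no gene was called in the 3 lines together in the brain, and those with the lowest adjusted p of each list were Aco1 (-0.22 ± 0.09, adjusted p = 0.467), Fads3 (-0.25 ± 0.09, adjusted p = 0.418) and Prkaa2 (-0.26 ± 0.12, adjusted p = 0.533).

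**Figure D5:**
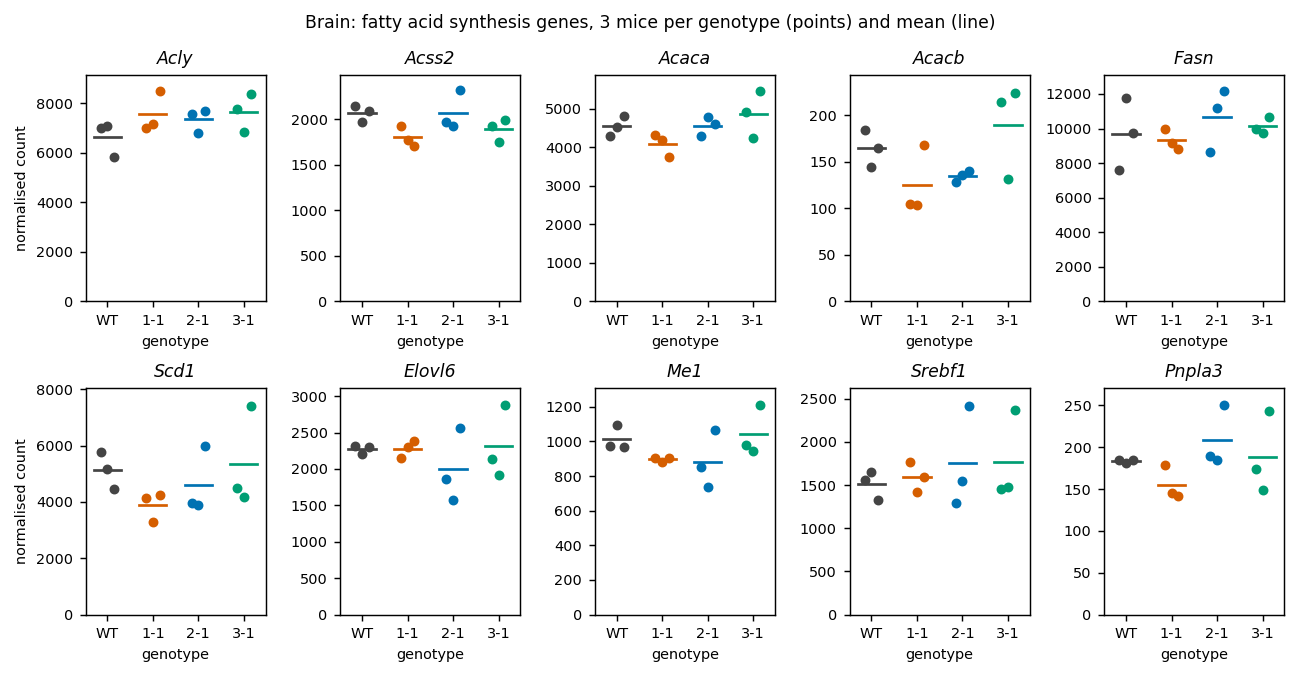
Normalised counts (vertical axes, from 0) of the 10 genes in brain by genotype (horizontal axes), with 1 point per replicate and a line at the mean. Genotype means lie between 75.9% and 117% of WT, and the points of replicate C are highest in the tRNA-Phe-3-1-/- brains for all 10 genes.

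The median coefficient of variation of the 10 genes among WT samples was 8.98% in the brain and 26.9% in the liver. In tRNA-Phe-3-1-/- brains replicate C was 0.34 above the WT mean in the median, and the other replicates were -0.05 and -0.17. Without it the log2 fold change of Scd1 in this line was -0.24 in place of 0.02.

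Since the deleted genes read phenylalanine codons, the phenylalanine share of the encoded proteins was computed. It ranged from 2.65% in Srebf1 to 9.36% in Elovl6, against a median of 3.75% over 21464 mouse proteins, and 8 of the 10 members lay above that median. Of these, Acly, Acaca, Me1, Acss2 and Acacb stood above only 58.4% to 61.9% of proteins. After Elovl6, the highest shares were those of Scd1 (5.35%) and Pnpla3 (4.95%). Elovl6 itself was not called in any line, whereas Srebf1, with the lowest share, was called reduced in the 3 lines together in liver. RNA levels do not measure translation, and a link between this share and the RNA changes was not tested.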

How the data were processed

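RNA sequencing of brain and liver pieces was used from 24 samples, 3 per genotype and tissue. The authors used Trim Galore for trimming and STAR for alignment (GRCm38.p6), quantified reads strand-aware with Salmon with sequence and GC bias correction, and normalised each tissue with DESeq2. The deposited values are a signal, estimated counts divided by 1 size factor per sample, and every value came out as whole reads (tolerance 0.01 reads). In 2 samples 1 read was worth close to 1 (1.002 in tRNA-Phe-1-1-/- brain C and 1.005 in tRNA-Phe-3-1-/- liver C), where the step alone cannot tell whole reads from rounded values. Of the identifiers, 55434 were Ensembl genes and 35 were mitochondrial entries.

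Here genes were tested where their mean normalised count was 10 or more, with limma 3.58.1 (R 4.3.3, variance trend) on log2(value + 1), with all 12 samples of a tissue in 1 fit and no covariate. Values of p were adjusted by Benjamini-Hochberg over all tested genes, with a threshold of 0.05. Intervals are 95% intervals of that fit, not adjusted. The F-test came from the same fit. Alternatives were edgeR 4.0.16 and DESeq2 1.42.0 on recovered reads, other pseudocounts, filters and scalings, a replicate block, fits of only the 2 groups compared, and leaving out each library. Python 3.11.15 with numpy 2.4.6, pandas 2.3.3 and matplotlib 3.10.9 was used for tables and plots. An exact permutation test of 3 against 3 samples cannot go below p = 0.10 and was not used.

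The 10 genes and all lists were chosen with earlier results of these data known. All 10 members are named. From each pathway list up to 3 genes with the lowest adjusted p in the 3 lines together were named in the liver and 1 in the brain, together with the 8 other genes most correlated with the members' mean standardised level, and marker genes beside a result. Rxra, and Pnpla5 among the regulators, were named after their values were seen, to complete a count. Replicate letters were not treated as pairs in the main fit. Same-letter correlations of deviations ran from -0.164 to 0.492 in the brain (median 0.034) and from -0.294 to 0.236 in the liver (median -0.025). Those of other letters ran from -0.358 to 0.329 (median -0.035) and from -0.361 to 0.368 (median -0.004). These values cannot show whether same-letter samples shared a litter or batch. Tissues were not tested against each other.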

Additional observations from a re-analysis of the deposited data

Results flagged for a closer look

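In the liver the effects of the deletions differed between lines for 2 genes, by the limma test of the difference itself, a count near the general share, since 15.9% and 16.1% of all liver genes were called in these comparisons. For Acss2, tRNA-Phe-1-1-/- livers differed from tRNA-Phe-2-1-/- (adjusted p = 0.0156) and tRNA-Phe-3-1-/- livers (adjusted p = 0.0121), and all 3 tRNA-Phe-1-1-/- livers were the lower. For Acaca, the adjusted p values were 0.0326 and 0.0344 in the same order, and all 3 tRNA-Phe-1-1-/- livers were the higher. The Acaca call was lost in 7 of 17 alternatives in each comparison. The Acss2 call was lost in 3 of 17 against tRNA-Phe-2-1-/- and in 0 of 17 against tRNA-Phe-3-1-/- livers.

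Pnpla3 had fold changes of opposite sign in the tissues of tRNA-Phe-2-1-/- mice, though in the brain the groups all but touched. Its log2 fold change against WT was 0.17 in the brain, where all 3 knockout samples lay above all 3 WT samples, and -3.55 in the liver, where all 3 lay below. The closest brain samples were tRNA-Phe-2-1-/- replicate B at 185.30 normalised counts and WT replicate C at 185.11. Of all brain genes 6.02% lay wholly above WT in this line, against 1 of the 10 members. The brain value was not called (adjusted p = 0.965, limma), and the difference between tissues was not tested.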

How the results depend on the processing

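Of 84 fold changes followed gene by gene, 42 kept direction and call under every alternative and 18 changed direction in at least 1; the cause was not tested. In tRNA-Phe-1-1-/- livers Acly, Acss2, Acacb, Srebf1 and Pnpla3 kept their call in all of them. Calls of the 10 genes moved as follows. In tRNA-Phe-2-1-/- livers the count of 1 became 0 without the trend, 5 by DESeq2 and 4 with only the 2 groups fitted. In tRNA-Phe-3-1-/- livers 4 became 1 without the trend and 1 with 2 groups. The 2 calls between tRNA-Phe-1-1-/- and each other line became 1 without the trend, and 1 with 2 groups against tRNA-Phe-3-1-/-. Over all liver genes limma called 2751, 21, 140 and 641 genes in the 3 lines and the 3 together, and DESeq2 3475, 485, 737 and 1518.

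With the replicate block, members called were 6 in tRNA-Phe-1-1-/-, 0 in tRNA-Phe-2-1-/-, 0 in tRNA-Phe-3-1-/- and 5 in the 3 together, and 1 in each comparison of tRNA-Phe-1-1-/- with another line. Supply genes called with the block were 0, 0 and 1 in 2-1, 3-1 and the 3 together, and regulators 0 in tRNA-Phe-3-1-/-.

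Supply genes called became 5 in tRNA-Phe-1-1-/- livers with 2 groups. In tRNA-Phe-2-1-/- they became 0 without the trend and 2 by DESeq2, in tRNA-Phe-3-1-/- 0 without the trend and 0 with 2 groups, and in the 3 together 1 without the trend. Activation and elongation genes became 2 by DESeq2 and 2 with 2 groups in tRNA-Phe-2-1-/-, 1 by DESeq2 in tRNA-Phe-3-1-/- and 5 by DESeq2 in the 3 together. Regulators became 5 by DESeq2 and 1 with 2 groups in tRNA-Phe-2-1-/-. In tRNA-Phe-3-1-/- they became 2 with a pseudocount of 5, 2 with a mean of at least 50, 0 without the trend, 5 by DESeq2 and 0 with 2 groups. In the 3 together they became 2 without the trend and 8 by DESeq2.

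Leaving out each library in turn, members called ranged from 5 to 8 in tRNA-Phe-1-1-/-, 0 to 1 in tRNA-Phe-2-1-/-, 0 to 3 in tRNA-Phe-3-1-/- and 1 to 7 in the 3 together. They ranged from 0 to 1 for 1-1 against 2-1 and from 1 to 3 for 1-1 against 3-1. Supply genes ranged from 4 to 10, 0 to 0 and 0 to 1 by line and 0 to 2 together. Activation genes ranged from 0 to 1 in tRNA-Phe-3-1-/- and 0 to 4 together, and regulators from 0 to 1 and 0 to 7.

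Directions that changed belonged to fold changes that were not called. In the liver, leaving out a library gave -0.18 to 0.59 for Elovl6 in tRNA-Phe-1-1-/- and -0.38 to 0.021 for Acaca in the 3 together. In tRNA-Phe-1-1-/- brains it gave -0.20 to 0.11 for Fasn, -0.029 to 0.042 for Elovl6 and -0.012 to 0.16 for Srebf1. In tRNA-Phe-2-1-/- brains it gave -0.086 to 0.049 for Acss2, -0.035 to 0.050 for Acaca, -0.022 to 0.29 for Fasn and -0.090 to 0.37 for Srebf1. In tRNA-Phe-3-1-/- brains it gave -0.081 to 0.23 for Fasn, -0.24 to 0.18 for Scd1, -0.17 to 0.13 for Elovl6, -0.072 to 0.11 for Me1, -0.037 to 0.32 for Srebf1 and -0.18 to 0.17 for Pnpla3. In the 3 brains together it gave -0.058 to 0.025 for Acaca, -0.10 to 0.21 for Fasn and -0.088 to 0.029 for Pnpla3. Quantile normalisation gave -0.0152 for Elovl6 in tRNA-Phe-1-1-/-, 0.00486 for Acss2 in tRNA-Phe-2-1-/- and -0.036 for Pnpla3 in tRNA-Phe-3-1-/- brains, and edgeR and DESeq2 gave 0.00566 and 0.00463 for Acss2.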
